A study of Mus musculus with 8 samples.

Results

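The 26 integrin subunit genes on the array and 14 scaffold genes of focal adhesions, 40 of 31709 genes in all, were compared between ovarian tumours that lack Nedd9 and tumours that carry it. The integrin genes were taken by symbol and the scaffold genes (Pxn, Lpxn, Tgfb1i1, Vcl, Tln1, Tln2, Zyx, Trip6, Parva, Parvb, Ilk, Lims1, Fermt1 and Fermt2) by name. The 8 tumours arose spontaneously in untreated female mice of the strain C57BL/6JTgMISIIR-TAg, 4 Nedd9-WT and 4 Nedd9-null, with 1 mouse and 1 Agilent array for each. All 8 mice carry the transgene TgMISIIR-TAg, in which the promoter of Amhr2, the receptor gene for anti-Muellerian hormone, drives SV40 T antigen, so that tumours start where that promoter is active. The labels give neither an age nor the exons removed in the null allele, and they differ on whether tumours were collected below or above the same volume limit.

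Integrins are pairs of an alpha and a beta subunit that span the cell membrane and bind matrix proteins such as fibronectin, laminin and collagen, or receptors on other cells. Inside the cell, talin and kindlin bind the tail of the beta subunit and switch the receptor on, vinculin links talin to actin, and ILK, PINCH and the parvins form a further bridge. Paxillin and its relatives dock kinases and adaptors at these sites, among them the CAS family scaffolds to which NEDD9 belongs. In the ovary and oviduct, Itgb4 and Itgb6 are known mainly from epithelium, while the leukocyte integrins mark immune cells.

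A level is the log2 signal of a probe after the 75th percentile of its array was subtracted. A difference is Nedd9-null minus Nedd9-WT on that log2 scale, with the standard error (SE) of a limma fit over all genes and with p-values adjusted by the Benjamini-Hochberg method over all genes tested. The targeted gene, Nedd9, differed by -4.51 (SE 0.44, limma adjusted p = 0.0281), and the genotypes did not overlap, although it is not known whether its probe lies in the deleted part of the gene. As far as the names of the raw data show, the 4 arrays of each genotype lay on a slide of their own. Slide and genotype then cannot be told apart. Nedd9-null replicate 1 stood apart from its group: over all genes it correlated at 0.938 to 0.973 with the Nedd9-WT arrays and at 0.886 to 0.920 with Nedd9-null replicates 2 to 4, which correlated at 0.977 to 0.984 with each other. Results are therefore given with and without that array. The choice to set it apart was made after its values were known. The number of arrays limits the precision, and the labels call the samples replicates without naming litters or cohorts. In bulk tumour RNA, fewer cells of a type and less RNA per cell cannot be told apart.

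Of the 40 genes, 37 were well above background on at least 3 arrays of a genotype and were tested among 25552 genes. Itgb6 and Fermt1 entered through the Nedd9-null arrays alone. The untested genes were Itga2, a collagen receptor subunit, with signal above background on 2 Nedd9-null and 2 Nedd9-WT arrays, Itgad, above background on 1 Nedd9-null array and no Nedd9-WT array, and Itgae, the partner of Itgb7 on T cells of epithelia, above background on 0 arrays. With all 8 arrays, 0 of the 37 passed an adjusted p of 0.05 in limma, where 0.0665% of all genes tested did (17 genes, 0.0587% higher and 0.00783% lower). An unadjusted p under 0.05 was found for 10 of the 37 (27%), 4 higher and 6 lower in Nedd9-null tumours, beside 23.9% of all genes. The genotypes did not overlap in 4 of the 37 (10.8%), 1 higher and 3 lower, beside 12.7% of all genes (7.17% higher and 5.58% lower, or 1831 and 1425 genes; 921 and 3135 when each array was scaled to its median, which moved the median difference of all genes from 0.03 to -0.16). The shares by both counts were close to those of the array as a whole. Itgb6 and Fermt1, kept only through the arrays in which they were high, are both among the 10, while Itgb6 is among the 4. The median difference was 0.02 for the 37 genes and 0.03 for all genes, with 19 above 0 and 18 below.

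Large single differences were more frequent in the list than over the array. The spread over the 8 arrays was larger too, with a median SD of 0.78 for the 37 genes and 0.48 for all genes. An absolute difference above 1 log2 unit was found in 13 of the 37 (35.1%), beside 18.4% of all genes. Itgb6 and Fermt1, kept only through the arrays in which they were high, are among the 13. Itga8, also among the 13, differed by 0.13 without Nedd9-WT replicate 3, its one array at background. These large differences were mostly among the receptors: the median absolute difference was 0.62 for the 23 tested integrin subunits, 0.20 for the 14 scaffolds and 0.37 for all genes. Over the 8 arrays the median SD was 1.02 for integrin subunits, 0.42 for scaffolds and 0.48 for all genes. Without Nedd9-null replicate 1, 9 of the 37 passed (24.3%, 3 higher, among them Itgb6 and Fermt1, and 6 lower), beside 18.7% of all genes (10.3% higher and 8.36% lower), and 12 of the 37 did not overlap (32.4%), 6 in each direction, beside 34.4% of all genes (16.4% higher and 18.1% lower). Itgb6 and Fermt1 are also among the 6 higher without overlap. In 26 of the 37 (70.3%) Nedd9-null replicate 1 lay within the Nedd9-WT range, beside 52% of all genes.

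**Figure D1:**
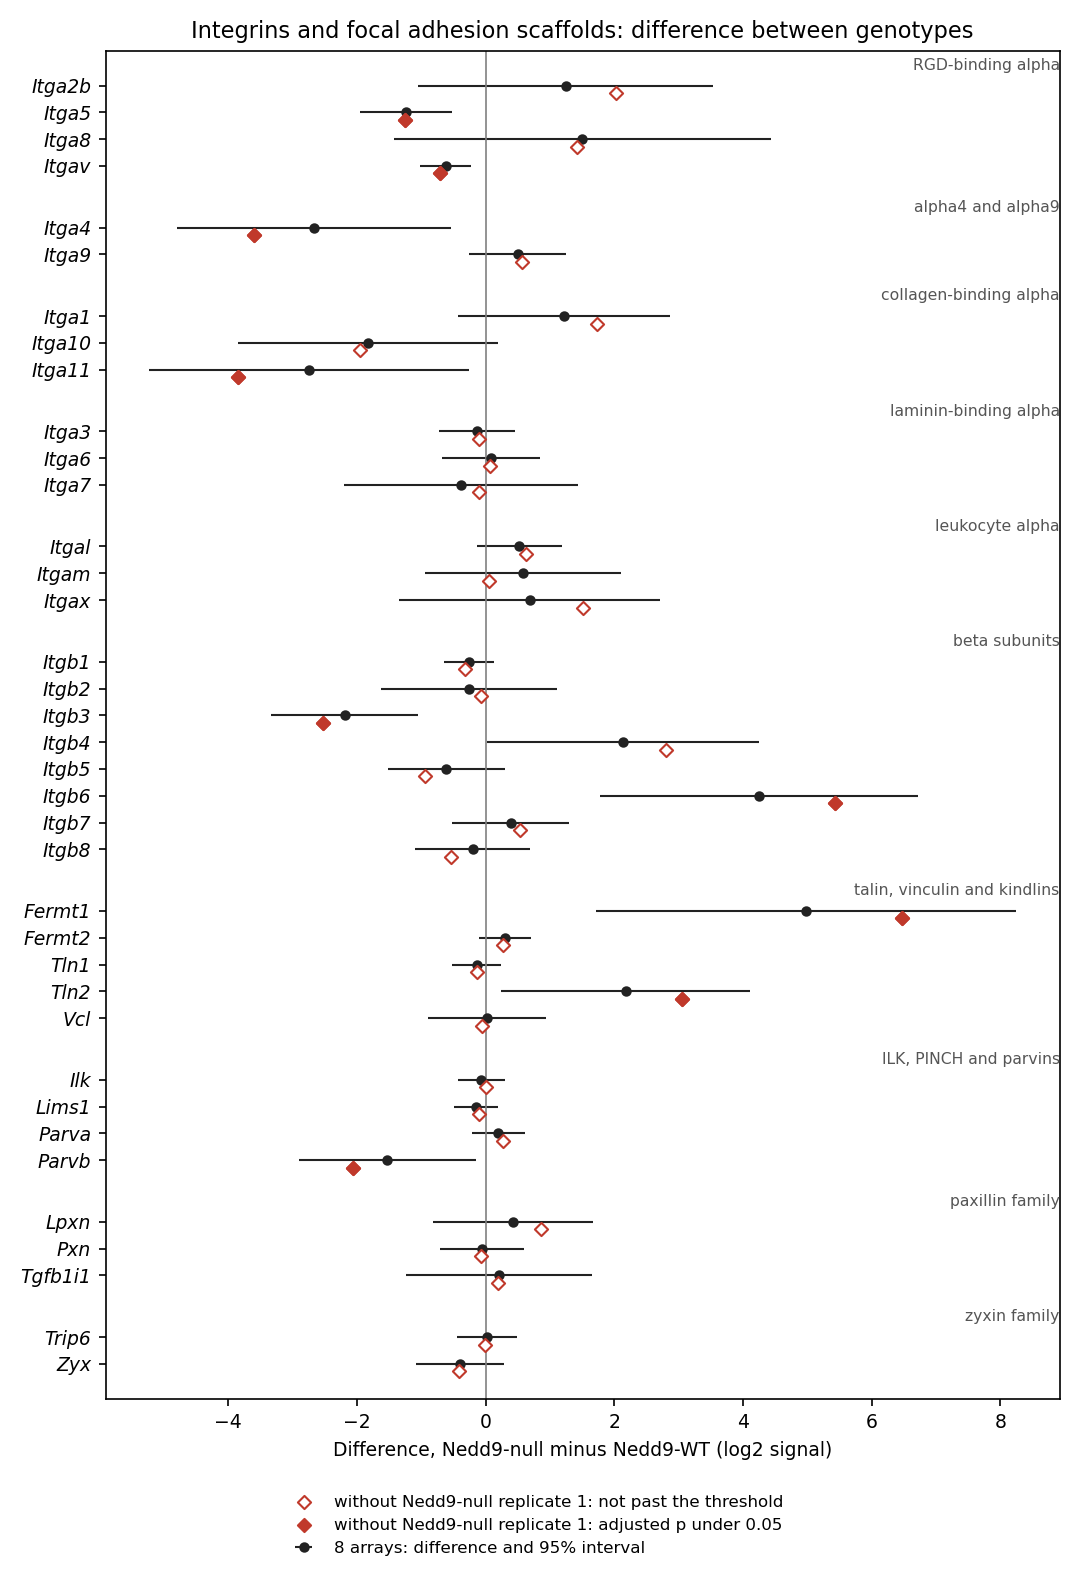
Difference in log2 signal, Nedd9-null minus Nedd9-WT, for the 37 tested genes in blocks by role. Black points and lines are the limma difference and its 95% interval from 8 arrays. Diamonds are the difference without Nedd9-null replicate 1, filled for the 9 genes with an adjusted p under 0.05 in that fit. Itgb6 and Fermt1 lie farthest to the right and Itga4 and Itga11 farthest to the left, while Tln1, Ilk and Trip6 lie near 0.

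The sequences below belong to the genes in which the genotypes did not overlap, to Fermt1, and to the probe choice for Itgb3. Each line gives the first 30 of the 60 bases of an array probe, 5′ to 3′, in lower case. Coordinates are those of the whole probe in the files' build, mm9. The used Itgb6 probe spans an intron, as 9 of the 58 probes of these genes do. Probes were not assigned to exons or UTRs.
Itgb6, chr2:60438632-60443247, minus strand: aaggaagttgctaaatttgaagcagaacgc
Fermt1, chr2:132730394-132730453, minus strand: aaggctccataatttttcaaatgaaaaata
Itgb3, used probe, chr11:104531672-104531731, plus strand: ccacagcaacatcagagtctttgtccattt
Itgb3, other probe, chr11:104528625-104528684, plus strand: acttatgtgtgtgacgagtgtggggaaatg
Itga5, chr15:103175022-103175081, minus strand: gggttgatctggagcccagtctcggattct
Itgav, chr2:83646133-83646192, plus strand: gggaatttagtggcaaagtatatattggta

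The alpha subunits that bind the RGD motif of fibronectin and vitronectin are Itga5, Itgav, Itga8 and Itga2b. Itga5, the classical fibronectin receptor subunit, read -2.78, -2.17, -3.23 and -3.06 in Nedd9-null tumours 1 to 4 and -2.02, -1.89, -1.10 and -1.29 in Nedd9-WT tumours 1 to 4. All 4 Nedd9-null tumours, replicate 1 included, were below all 4 Nedd9-WT tumours. The difference was -1.24 (SE 0.31), 2.36-fold lower, with a limma adjusted p of 0.0953, and it was the same size without Nedd9-null replicate 1 (-1.24, adjusted p = 0.0481). Itgav, the shared partner of several beta subunits in vitronectin and latent TGF-beta receptors, read -0.11, -0.39, -0.51 and -0.55 in Nedd9-null tumours and 0.03, 0.34, 0.11 and 0.42 in Nedd9-WT tumours. The groups again did not overlap, by a small margin between Nedd9-null replicate 1 and Nedd9-WT replicate 1. The Itgav difference was -0.62 (SE 0.17), 1.53-fold lower, with a limma adjusted p of 0.107, and -0.71 (adjusted p = 0.0239) without Nedd9-null replicate 1. A second Itgav probe differed by -0.39, with overlapping groups.

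The other RGD-binding subunits varied within a genotype. Itga8, known from smooth muscle and mesenchyme, lay between -3.50 and -2.72 in Nedd9-null tumours and between -8.59 and -2.02 in Nedd9-WT tumours, where replicate 3 was the one low value and the one array at background. Itga2b, the platelet receptor subunit, lay between -6.20 and -2.95 in Nedd9-null tumours, lowest in replicate 1, and between -6.54 and -2.82 in Nedd9-WT tumours. Neither passed (differences 1.51 and 1.25, limma adjusted p = 0.51 and 0.485). The summed signal of 8 platelet and megakaryocyte markers, in units of the 75th percentile, was 0.98 to 3.63 in Nedd9-null and 1.05 to 9.24 in Nedd9-WT tumours. A further listed marker, Gp6, was not tested and is not in the sum. Of the 8, 7 were lower and 0 passed the threshold. The part of this signal in the Itga2b and Itgb3 values was not tested.

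Itga4, which binds fibronectin and VCAM1, read 0.14 in Nedd9-null replicate 1 and -3.03, -3.83 and -3.77 in replicates 2 to 4. In Nedd9-WT tumours it read 0.37, 1.14, -0.93 and -0.38. Nedd9-null replicate 1 thus lay among the Nedd9-WT tumours and the other Nedd9-null tumours lay below all of them. The difference was -2.67 (SE 0.92, limma adjusted p = 0.142) with all arrays and -3.59 (adjusted p = 0.00354), 12.1-fold lower, without that array. A second Itga4 probe differed by -2.85, with 1 of 4 Nedd9-null arrays above background and all 4 Nedd9-WT arrays. Itga9, the closest relative of Itga4, lay between 1.05 and 1.50 in Nedd9-null and between 0.19 and 1.54 in Nedd9-WT tumours (difference 0.50, limma adjusted p = 0.395).

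The collagen-binding subunits did not share a direction. Itga11, a receptor for fibrillar collagen known from fibroblasts, read 1.64 in Nedd9-null replicate 1 and -1.57, -3.36 and -3.51 in replicates 2 to 4, against 1.48, 1.45, 0.67 and 0.55 in Nedd9-WT tumours. The highest of the 8 values was that of Nedd9-null replicate 1, and the other Nedd9-null tumours the lowest 3. The difference was -2.74 (SE 1.08, limma adjusted p = 0.178), and -3.85 (adjusted p = 0.00308), 14.4-fold lower, without that array. Itga1, a receptor for basement membrane collagen, lay between -2.79 and -0.20 in Nedd9-null tumours, lowest in replicate 1, and between -4.06 and -1.24 in Nedd9-WT tumours (difference 1.22, limma adjusted p = 0.335). Without that array the genotypes did not overlap in Itga1, which was 3.31-fold higher (adjusted p = 0.107). Itga10, known from cartilage, lay between -4.35 and -3.21 in Nedd9-null and between -3.71 and 0.22 in Nedd9-WT tumours (difference -1.82, limma adjusted p = 0.248). Summed fibroblast markers were 15.8 to 25.9 in Nedd9-null and 19.3 to 65.0 in Nedd9-WT tumours, with 3 of 8 markers higher, 5 lower and 0 past the threshold. Their part in the Itga11 values was not tested.

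The laminin receptor subunits Itga3, Itga6 and Itga7 showed small differences. Itga3 differed by -0.14 (95% interval -0.73 to 0.45), Itga6 by 0.08 (-0.68 to 0.84) and Itga7 by -0.38 (-2.20 to 1.43), with limma adjusted p from 0.781 to 0.909. The sign of all 3 turned in at least 1 other setting. The intervals leave room for changes above 1 log2 unit in Itga7, the muscle laminin receptor subunit, whose values ran from -0.73 to 2.93 within Nedd9-WT tumours.

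**Figure D2:**
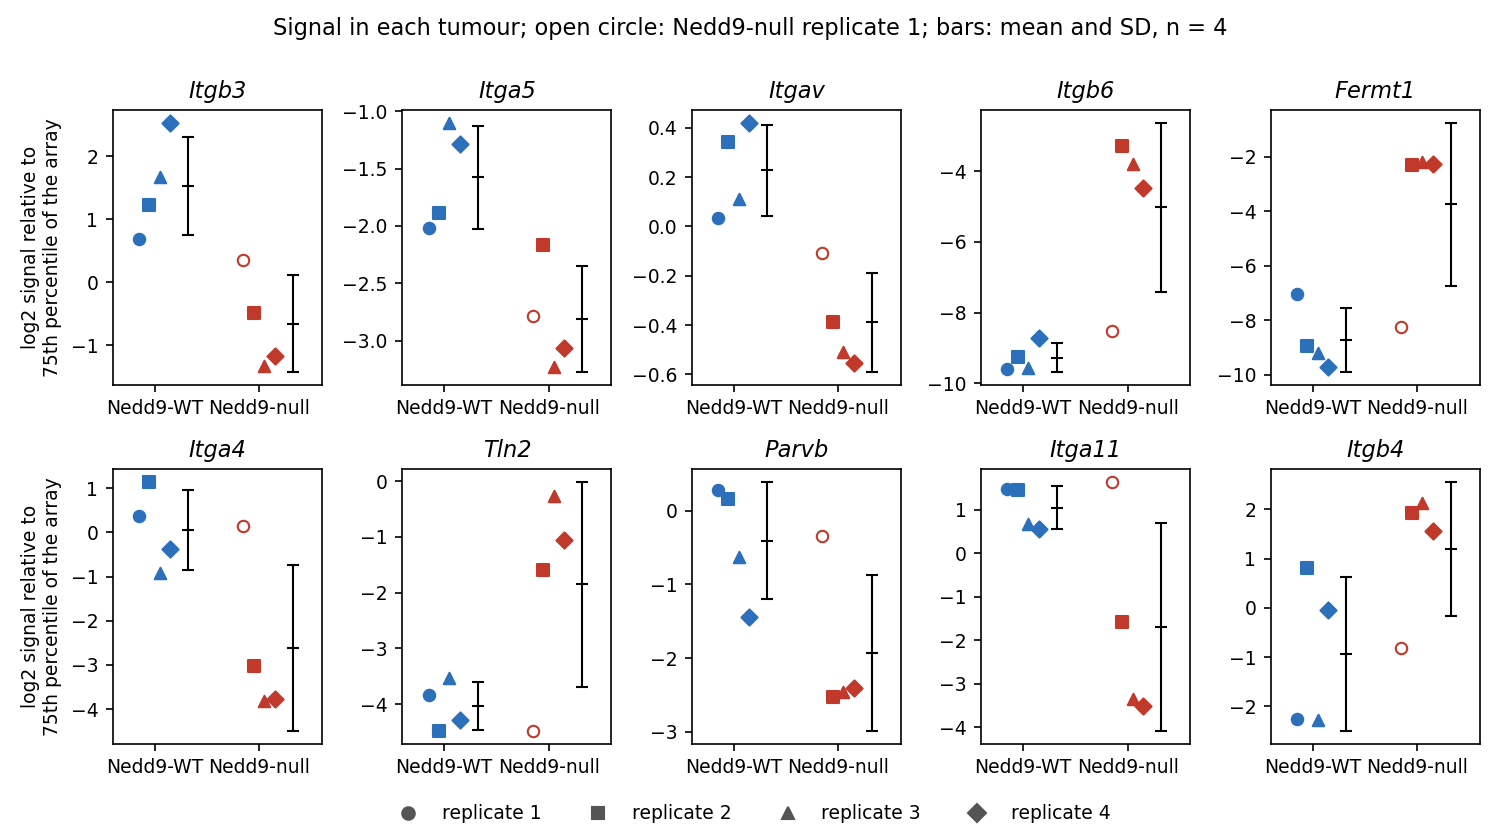
Log2 signal, with the 75th percentile of each array at 0, for the 10 genes with an unadjusted p under 0.05, on an axis of its own for each gene. Symbols are tumours by replicate number, the open circle is Nedd9-null replicate 1, and bars are the mean and SD of 4 tumours. The genotypes do not overlap in Itgb3, Itga5, Itgav and Itgb6, and in Itga4, Itga11, Parvb, Tln2, Fermt1 and Itgb4 the open circle lies at or near the Nedd9-WT tumours.

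Among the beta subunits, Itgb3 was lower in all 4 Nedd9-null tumours, and Itgb6 was above background in 3 of them and in no Nedd9-WT tumour. Itgb3, the partner of Itgav in the vitronectin receptor and of Itga2b on platelets, read 0.36, -0.48, -1.34 and -1.17 in Nedd9-null tumours and 0.69, 1.23, 1.67 and 2.54 in Nedd9-WT tumours. Nedd9-null replicate 1 was the highest of its group and still below every Nedd9-WT tumour. The difference was -2.19 (SE 0.50), 4.57-fold lower, with a 95% interval of -3.34 to -1.04 and a limma adjusted p of 0.0871, the lowest among the 37 genes. Without that array it was -2.53 (adjusted p = 0.00932). The other Itgb3 probe, also above background on all 8 arrays, read -5.56, -6.54, -2.35 and -6.73 in Nedd9-null tumours and -5.45, -5.21, -4.00 and -4.23 in Nedd9-WT tumours. It differed by -0.57 and overlapped, since Nedd9-null replicate 3 was its highest value, so the 2 probes of Itgb3 disagreed on that tumour. Averaging the kept probes of each gene ended the separation of Itgb3 and Itgav. Itga5 and Itgb6 have 1 kept probe each, so this setting could not alter them.

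Itgb6, the epithelial partner of Itgav that activates latent TGF-beta, was near background in every Nedd9-WT tumour. It read -8.52, -3.27, -3.79 and -4.48 in Nedd9-null tumours and -9.58, -9.24, -9.56 and -8.70 in Nedd9-WT tumours. The probe was well above background in Nedd9-null replicates 2 to 4 and not in replicate 1 or any Nedd9-WT tumour, and the order of replicate 1 and the Nedd9-WT tumours is one of values at background. In Nedd9-WT tumours, Itgb6 values under the lowest signal above background on their array were raised to that signal. Other values at background, that of Nedd9-null replicate 1 among them, entered as measured. The Nedd9-null group was then 12.1-fold higher, and 27.2-fold without Nedd9-null replicate 1. These folds depend on the background step and are no lower bounds. The log2 difference was 1.61 with normexp background correction and 2.02 in the deposited value table. The limma adjusted p of the difference was 0.0957 with all arrays and 0.000309 without Nedd9-null replicate 1. Because the gene was kept through the tumours in which it was high, its p-values are no independent support for the direction. The fitted difference, 4.26 (SE 1.07), sets these tumours against values at background and ranged from 1.61 to 5.42 over the settings tried, and the genotypes overlapped after quantile normalization and in the deposited value table. A second Itgb6 probe was not above background on any array.

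Itgb4, the hemidesmosome subunit that pairs with Itga6 on basal epithelium, read -0.81 in Nedd9-null replicate 1 and 1.93, 2.12 and 1.56 in replicates 2 to 4. Nedd9-WT tumours were spread, at -2.25, 0.80, -2.28 and -0.04. The other 3 Nedd9-null tumours besides replicate 1 were above all Nedd9-WT tumours. The difference was 2.14 (SE 0.91, limma adjusted p = 0.206) and 2.81 (adjusted p = 0.0518) without Nedd9-null replicate 1. Itgb1, the partner of most alpha subunits, varied little across the arrays: it lay between 1.30 and 1.65 in Nedd9-null and between 1.48 and 1.86 in Nedd9-WT tumours (difference -0.26, 95% interval -0.64 to 0.12, limma adjusted p = 0.382). Scaled to the median of each array, the genotypes did not overlap in Itgb1, which then differed by -0.45. That scaling moved the differences of all genes alike, their median from 0.03 to -0.16. Itgb5, another partner of Itgav, differed by -0.61 (95% interval -1.52 to 0.29, limma adjusted p = 0.381) and Itgb8, also a partner of Itgav, by -0.20 (-1.09 to 0.68, adjusted p = 0.787).

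Integrins of leukocytes did not differ past the threshold. Itgb2, the common beta subunit of white cells, lay between -2.53 and -1.02 in Nedd9-null and between -3.08 and -0.30 in Nedd9-WT tumours (difference -0.26, limma adjusted p = 0.826). Itgal, its partner on lymphocytes, differed by 0.53 (adjusted p = 0.298), Itgax, its partner on dendritic cells, by 0.68 (adjusted p = 0.677) and Itgb7, the gut-homing subunit, by 0.39 (adjusted p = 0.588), all from limma. Nedd9-null replicate 1 had the lowest Itgax value of all 8 tumours, -6.18. Without it, the genotypes did not overlap in Itgal, which was 1.54-fold higher (adjusted p = 0.207). Summed leukocyte markers spanned 6.53 to 25.5 in Nedd9-null and 6.08 to 27.6 in Nedd9-WT tumours, with 10 of 18 tested markers higher, 8 lower and 0 past the threshold. Itgb2l and Ncr1 were not above background on any array. T cell markers alone summed to 1.56 to 2.33 in Nedd9-null and 1.34 to 1.73 in Nedd9-WT tumours. Of the 9, 7 were higher and 0 passed the threshold, with a median difference of 0.78. Without Nedd9-null replicate 1, 1 of the 9 passed, beside 18.7% of all genes. The part of these markers in the Itgal values was not tested.

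Itgam, the myeloid partner of Itgb2, shows how the choice of probe enters such values. Its brightest probe, used here, carries a run of the dinucleotide CA, printed in capitals below, and only 24 of the 39429 probes on the array carry a CA repeat of 20 bases. The first 30 bases of its 3 probes are shown (mm9, plus strand).
Itgam, used probe, chr7:135261755-135261814: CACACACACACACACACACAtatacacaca
Itgam, upstream probe, chr7:135260275-135260334: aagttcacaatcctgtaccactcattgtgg
Itgam, farthest upstream probe, chr7:135212140-135212199: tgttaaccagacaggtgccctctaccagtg
The used probe differed by 0.58 (limma adjusted p = 0.636), the next by -0.13 and the third by 0.24. On the used probe, Nedd9-null replicate 1 was the highest of the 8 tumours at 5.84, while on the upstream probe it read -3.80, within the Nedd9-WT range of -4.51 to -2.06. On the farthest upstream probe it was again the highest of the 8 tumours, at -4.43. Whether the repeat contributes to the signal was not tested.

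Among the activators of integrins, Fermt1 and Tln2 read above all Nedd9-WT tumours in 3 of the 4 Nedd9-null tumours, and the differences of Fermt2 and Tln1 were under 0.5 log2 units. Fermt1, the kindlin of epithelia, read -8.23 in Nedd9-null replicate 1 and -2.29, -2.20 and -2.24 in replicates 2 to 4, against -7.02, -8.95, -9.20 and -9.71 in Nedd9-WT tumours. Nedd9-null replicates 2 to 4 were nearly equal and above background, and the other 5 arrays were not above background. With low Nedd9-WT values raised as for Itgb6, the Nedd9-null group was 20.5-fold higher in Fermt1, and 58.0-fold without replicate 1. These folds too depend on the background step and are no lower bounds. The log2 difference was 2.44 with normexp background correction and 2.90 in the deposited value table. The limma adjusted p of the difference was 0.109 with all arrays and 0.000762 without replicate 1. As with Itgb6, the gene was kept through the tumours in which it was high and its p-values are no independent support. The fitted difference, 4.98 (SE 1.41), was again taken against values at background, with a range of 2.44 to 6.48 over the settings. Fermt2, the kindlin of most other cells, lay between 0.84 and 1.02 in Nedd9-null and between 0.42 and 1.03 in Nedd9-WT tumours (difference 0.30, 95% interval -0.10 to 0.70, limma adjusted p = 0.328). A second Fermt2 probe, also above background on every array, differed by 0.04 and correlated at 0.226 with the used probe.

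Tln2, the less widely expressed talin, read -4.48 in Nedd9-null replicate 1 and -1.60, -0.27 and -1.05 in replicates 2 to 4. Nedd9-WT tumours read -3.83, -4.48, -3.52 and -4.27. The difference was 2.18 (SE 0.83, limma adjusted p = 0.171) and 3.05 (adjusted p = 0.00204), 8.31-fold higher, without replicate 1. A second Tln2 probe differed by 1.42, and there all 4 Nedd9-null tumours lay above all Nedd9-WT tumours, replicate 1 included. Tln1, the main talin, was steady, between 3.95 and 4.11 in Nedd9-null and between 3.91 and 4.44 in Nedd9-WT tumours (difference -0.14, 95% interval -0.52 to 0.24, limma adjusted p = 0.642). Vcl, which encodes vinculin, differed by 0.02 (95% interval -0.90 to 0.93, adjusted p = 0.983).

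The promoters of Itgb6 and Fermt1 are shown because both genes were above background in the same 3 tumours. Each line is the 250 bases before a start site, 5′ to 3′ on the gene's strand, from RefSeq on GRCm38.p6. A search of both strands covered 4 short motifs, none of which contains another: AP-1 (TGANTCA), TEAD (GGAATG), the GC box (GGGCGG) and the E-box bound by SNAI and ZEB factors (CACCTG). Capitals mark the matches.
Itgb6, first start, chr2:60722604-60722853, minus strand: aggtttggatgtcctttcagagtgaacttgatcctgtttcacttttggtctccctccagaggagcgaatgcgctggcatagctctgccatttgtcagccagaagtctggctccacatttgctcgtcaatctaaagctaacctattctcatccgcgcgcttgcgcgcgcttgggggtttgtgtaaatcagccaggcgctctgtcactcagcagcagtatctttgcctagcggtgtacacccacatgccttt
Itgb6, second start, chr2:60673694-60673943, minus strand: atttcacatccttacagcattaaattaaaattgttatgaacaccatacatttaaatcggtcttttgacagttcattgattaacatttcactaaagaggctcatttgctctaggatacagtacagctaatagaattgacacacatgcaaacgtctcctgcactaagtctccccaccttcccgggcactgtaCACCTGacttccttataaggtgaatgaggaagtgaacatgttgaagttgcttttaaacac
Fermt1, chr2:132946037-132946286, minus strand: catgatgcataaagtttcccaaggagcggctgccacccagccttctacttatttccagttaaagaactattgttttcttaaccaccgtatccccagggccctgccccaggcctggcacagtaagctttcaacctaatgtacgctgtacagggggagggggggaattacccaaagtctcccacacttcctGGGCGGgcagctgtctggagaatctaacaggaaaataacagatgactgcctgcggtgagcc
The first start of Itgb6 held 0 matches, the second 1 E-box and Fermt1 1 GC box. Of the 33 promoters found for 28 of the 40 genes, 15 held a GC box (45.5%, beside 32.7% of 32851 promoters), 6 the E-box (18.2%, beside 17.2%), 4 the TEAD motif (12.1%, beside 12.6%) and 2 the AP-1 motif (6.06%, beside 6.75%). Apart from the GC box these shares were near those of all promoters. The shares were not matched for GC content, and the GC box consists of G and C alone. GC content ran from 34.8% to 76.0% in the 33 promoters, with a median of 52.4% over all promoters. A match describes the letters alone.

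Parvb was the one gene with a large difference in the module of ILK, PINCH and parvins, which ties integrin tails to actin. It read -0.34 in Nedd9-null replicate 1 and -2.53, -2.45 and -2.40 in replicates 2 to 4, against 0.28, 0.17, -0.62 and -1.44 in Nedd9-WT tumours. Nedd9-null replicate 1 lay among the Nedd9-WT tumours and the other 3 below all of them. The difference was -1.53 (SE 0.59, limma adjusted p = 0.174) and -2.06 (adjusted p = 0.016), 4.16-fold lower, without that array. A second Parvb probe differed by -1.23. Its paralogue Parva differed by 0.19 (95% interval -0.22 to 0.61, limma adjusted p = 0.549), in the opposite direction.

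The remaining scaffolds had narrow ranges or none that followed genotype. Ilk, the pseudokinase at the centre of the module, differed by -0.07 (95% interval -0.43 to 0.30) and Lims1, which encodes PINCH, by -0.15 (-0.49 to 0.19), with limma adjusted p of 0.834 and 0.571. Pxn, which encodes paxillin, differed by -0.06 (-0.71 to 0.59), Tgfb1i1, which encodes HIC5, by 0.21 (-1.24 to 1.65) and Lpxn, the leukocyte paxillin relative, by 0.43 (-0.81 to 1.67), with limma adjusted p from 0.669 to 0.926. Of the zyxin family, which senses tension on actin, Trip6 differed by 0.02 (-0.44 to 0.48) and Zyx by -0.40 (-1.08 to 0.28), with limma adjusted p of 0.96 and 0.451. The intervals of Ilk, Lims1, Tln1 and Trip6 lie within 0.52 log2 units either way, and those of Tgfb1i1, Lpxn and Zyx do not exclude a change above 1 unit.

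**Figure D3:**
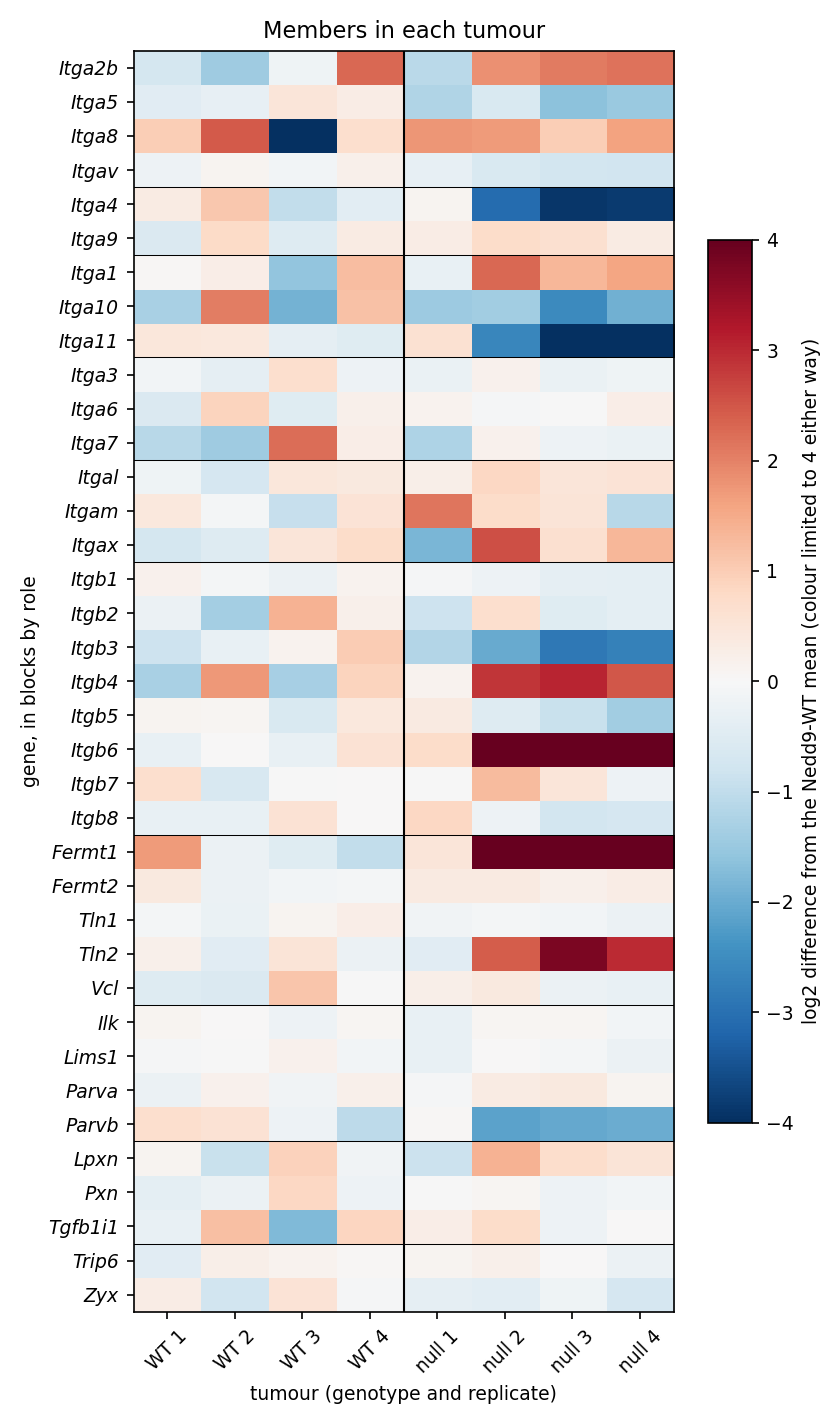
Log2 difference of each tumour from the Nedd9-WT mean for the 37 tested genes, in blocks by role, with colour limited to 4 units either way. Columns are the 4 Nedd9-WT and the 4 Nedd9-null tumours. The strong colours of Itga4, Itga11, Itgb6, Fermt1, Tln2 and Parvb are in Nedd9-null replicates 2 to 4, while the column of replicate 1 is pale for most genes.

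Other components of the adhesion machinery were read from a list of 42 genes. All 42 were tested, 17 higher and 25 lower in Nedd9-null tumours with a median difference of -0.11, and 0 passed in limma. The genotypes did not overlap in 1 higher and 3 lower of the 42, beside 12.7% of all genes. Leaving out Nedd9-null replicate 1 gave 5 higher and 8 lower past the threshold, beside 18.7% of all genes. Smallest in p were Tns1, which encodes the actin-binding adhesion protein tensin, with -0.98 (SE 0.21, limma adjusted p = 0.083), and Sdc4, the syndecan that acts with fibronectin receptors, with -1.51 (SE 0.39, adjusted p = 0.098). Tns1 lay between 1.76 and 2.33 in Nedd9-null and between 2.83 and 3.36 in Nedd9-WT tumours, and Sdc4 between 0.28 and 1.50 and between 1.76 and 3.14. In both genes all 4 Nedd9-null tumours were below all Nedd9-WT tumours. Rap1a, the small GTPase that recruits talin, was not above background on any Nedd9-null array and was on 3 Nedd9-WT arrays, through which it was kept. It is one of the 3 lower genes without overlap. The talin-binding scaffold gene Kank2 differed by -0.71 (limma adjusted p = 0.106).

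Ligands of integrins were read from a list of 34 genes, of which Fgg and Fgb were not tested. Of the 32 tested, 17 were higher and 15 lower, with a median of 0.12, and 0 passed in limma. The genotypes did not overlap in 1 higher and 2 lower of the 32, beside 12.7% of all genes, and 6 higher and 2 lower passed in the fit without Nedd9-null replicate 1, beside 18.7%. Npnt, a basement membrane ligand of Itga8, differed by 2.56 (SE 0.61, limma adjusted p = 0.092), Col4a2, a chain of basement membrane collagen, by -0.95 (SE 0.26, adjusted p = 0.103), Lama3, a chain of the laminin bound by Itgb4, by 1.63 (SE 0.47, adjusted p = 0.11) and Vtn, which encodes vitronectin, by 2.83 (SE 0.93, adjusted p = 0.133). Every Nedd9-null tumour was above every Nedd9-WT tumour in Lama3, and below in Col4a2.

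Marker lists of other cell types were read beside these genes. Summed signals of 9 epithelial markers were 7.80, 103, 104 and 55.0 in Nedd9-null tumours 1 to 4 and 13.1, 21.3, 58.0 and 18.4 in Nedd9-WT tumours, with 8 of 9 higher, a median difference of 0.98 and 0 past the threshold. Those of 9 markers of ciliated oviduct cells were 10.4, 99.3, 158 and 160 in Nedd9-null tumours, against 2.51 to 5.87 in Nedd9-WT tumours. Of these markers 9 of 9 were higher, beside 13348 of 25552 genes, and 0 passed the threshold. In 5 of the 9 the Nedd9-null tumours were higher without overlap, beside 7.17% of all genes. Without Nedd9-null replicate 1, 9 of the 9 passed, beside 10.3% of all genes that passed as higher. Nedd9-null replicates 2 to 4, the tumours with Itgb6 and Fermt1 above background and Itgb4 above all Nedd9-WT tumours, were also the highest in the ciliated list. In the epithelial list they did not stand apart, since Nedd9-WT replicate 3 (58.0) was above Nedd9-null replicate 4 (55.0). In that Nedd9-WT tumour Itgb6 and Fermt1 were not above background, and Itgb4 was the lowest of the 8 tumours. The part of either list in these genes was not tested. Summed signals of 10 ovarian somatic and steroidogenic markers were 210 in Nedd9-null replicate 1 and 61.3 to 64.4 in replicates 2 to 4. In Nedd9-WT tumours they were 169 to 241. Of the 10, 7 were lower, beside 12204 of 25552 genes, and 0 passed the threshold. The genotypes did not overlap in 1 higher and 1 lower, beside 7.17% and 5.58% of all genes. Without Nedd9-null replicate 1, 1 higher and 6 lower passed, beside 10.3% and 8.36% of all genes. The tumours low in Itga4, Itga11 and Parvb were also the ones low in this list, whose part was not tested. That split was common on the array: without Nedd9-null replicate 1, 34.4% of all genes did not overlap, beside 12.7% with it. A shared split therefore does not tie a list to a gene. Amhr2, named for its promoter in the transgene, was 6.46 in Nedd9-null replicate 1, 0.29 to 2.18 in replicates 2 to 4 and 6.11 to 7.04 in Nedd9-WT tumours. Wt1 and Foxl2, further markers of the ovarian soma, were above background on all arrays and differed by 0.14 and 0.25.

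Endothelial markers bear on the integrins of blood vessels. Their summed signals were 7.25 to 9.82 in Nedd9-null and 8.98 to 17.9 in Nedd9-WT tumours, with 10 of 11 lower and 0 past the threshold. Of the 11, 4 were lower without overlap, beside 5.58% of all genes. Without Nedd9-null replicate 1, 1 of the 11 was lower past the threshold, beside 8.36% of all genes. Itgb3, Itga5 and Itgav, all known from endothelium, were lower in all 4 Nedd9-null tumours, and the part of the endothelial signal was not tested. Smooth muscle and pericyte markers were 14.4 to 51.1 in Nedd9-null and 8.66 to 31.0 in Nedd9-WT tumours, with 7 of 10 tested higher, and Lmod1 was not above background on any array.

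**Figure D4:**
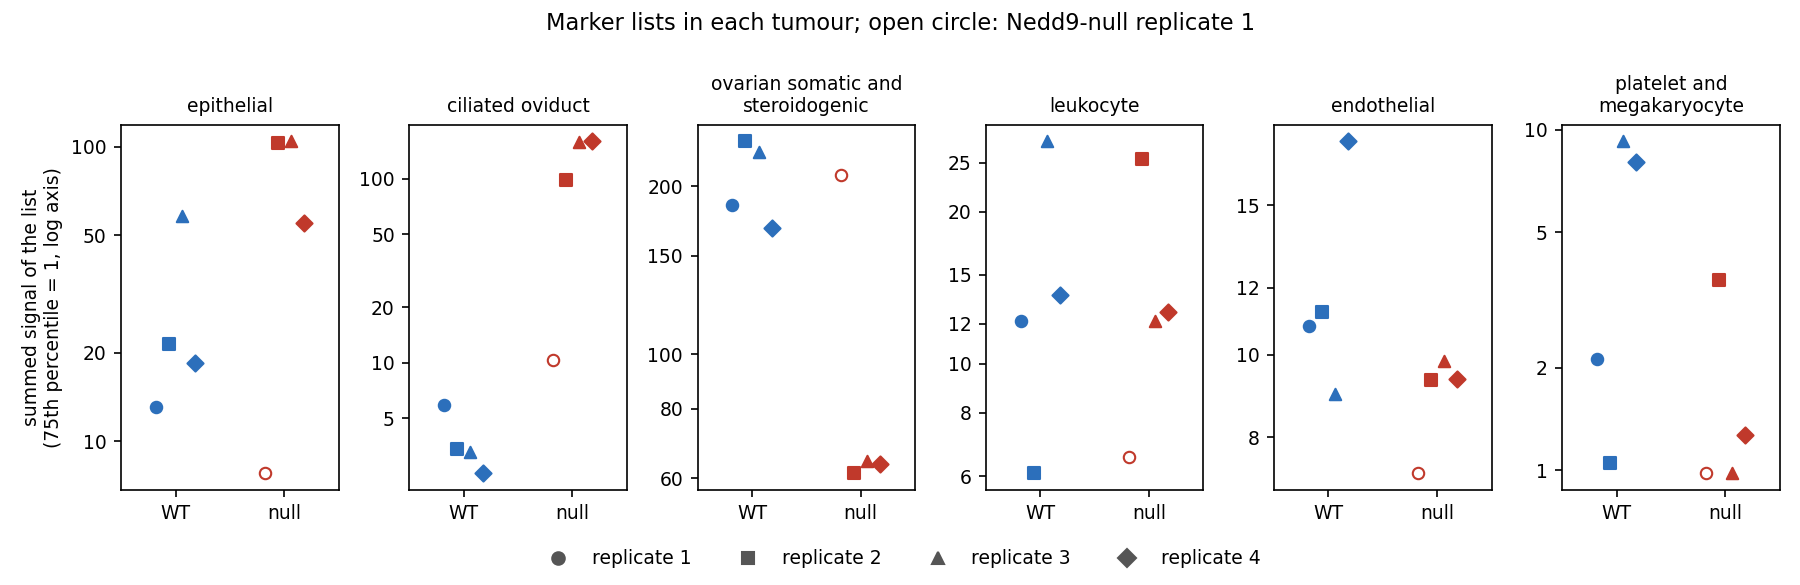
Summed signal of 6 marker lists in each tumour, in units of the 75th percentile of the array, on log axes that differ between panels. Symbols are tumours by replicate number and the open circle is Nedd9-null replicate 1. In the ciliated list all 4 Nedd9-null tumours lie above the Nedd9-WT range, with replicate 1 nearest to it, in the ovarian somatic list Nedd9-null replicates 2 to 4 lie below it, and leukocyte markers overlap between the genotypes.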

How the data were processed

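RNA of 8 tumours was labelled with Cy3 and hybridised to 1-colour arrays. The deposited intensity values were made with Agilent Feature Extraction 9.5.3, per the submitters' processing notes, and per the file headers they were background-subtracted within each array and placed on mm9. The deposited table of log2 values, whose columns share a median of 8.24, served as an alternative, and its background step is not given in the sources used here.

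Control and outlier spots were left out, saturated spots kept, and spots of a probe averaged (39429 probes, of which 27 lacked a value on an array). The processed signal was taken to log2 and the 75th percentile of its array subtracted (that percentile was 2418 to 3552, with 73.0% to 84.6% of probes well above background). A probe was kept if well above background on 3 or more of the 4 arrays of a genotype, and the brightest represented its gene. Names were updated through a RefSeq table of GRCm38.p6, used for names alone (26055 probes by accession, 3195 by symbol, 930 by synonym, 9249 kept the file's name). The comparison of genotypes used limma 3.58.1 (R 4.3.3), 2-sided, with Benjamini-Hochberg adjustment at 0.05, and files were read with the R package data.table (version 1.17.8). The fit was tried on simulated data with independent normal values for each gene and array. The simulation held no array that stands apart as Nedd9-null replicate 1 does, so it cannot show how the fit behaves with such an array. Per-sample values were printed for genes whose genotypes did not overlap, for the 4 smallest p in each direction and for genes past the threshold without Nedd9-null replicate 1. Up to 4 genes of each pathway list were named by p. The members and lists were chosen with earlier results of these data known. Alternatives were normexp background correction with an offset of 50, median or quantile scaling, no filter or a filter on all 8 arrays, the mean of kept probes, the deposited value table, a replicate block, array weights, an intensity trend, and each array left out in turn. Correlations of deviations from the genotype mean were -0.23 to -0.04 for same-numbered tumours and -0.15 to 0.17 for other pairs. They show no pairing by number but cannot exclude a shared litter or cohort. The main fit did not pair tumours.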

Additional observations from a re-analysis of the deposited data

Results flagged for a closer look

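In 38 genes (the 37 tested and Nedd9) the 4 values of each genotype were searched for a tumour far from the other 3, which chance finds in about 1 of 20 groups. It was found in 4 of 76 groups, 3 of them for Nedd9-null replicate 1. In that tumour Fermt1, the epithelial kindlin, read -8.23 where the nearest other Nedd9-null tumour read -2.29. Itga2b, the platelet integrin subunit, read -6.20 against -3.29 in the nearest, and Parvb, which encodes beta-parvin, read -0.34 against -2.40. The fourth was Pxn, which encodes paxillin, at -1.73 in Nedd9-WT replicate 3 against -2.79 in the nearest Nedd9-WT tumour. Without that tumour the genotypes did not overlap in Pxn, with Nedd9-null higher by 0.22.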

How the results depend on the processing

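The count of genes past the threshold (17) was 4 with median scaling, 4 with quantile normalization, 7 with the filter on all 8 arrays, 0 with a replicate block and 5985 with array weights, which gave Nedd9-null replicate 1 the lowest weight, 0.23. Over the leave-one-out fits it ranged from 0 to 4772, the highest without Nedd9-null replicate 1, and it was 42 without Nedd9-WT replicate 1. Of the 37 genes, 0 passed with all arrays except with array weights (10), and from 0 to 9 passed when single arrays were left out. The count without overlap was 2 with the mean of kept probes and ranged from 4 to 12 when single arrays were left out. The median difference of the 37 genes was -0.17 with median scaling, where that of all genes was -0.16, and from -0.12 to 0.13 with single arrays left out. With the replicate block 0 of the 37 genes passed, as without it, and Nedd9 did not pass (adjusted p = 0.217). Nedd9 also did not pass without any 1 of Nedd9-null replicates 2 to 4 or Nedd9-WT replicates 2 to 4 (adjusted p = 0.0876 to 0.124), while its difference stayed between -4.92 and -4.25 in all settings. The genotypes overlapped in Itgb6 after quantile normalization and in the value table, and the filter on all 8 arrays removed Itgb6, Fermt1 and Itga8. The genes that turned in sign were all small: Ilk was 0.0072 with quantile normalization, Itga6 -0.11 with median scaling and -0.041 with array weights, Trip6 -0.17 with median scaling, and Vcl -0.012 with normexp and -0.17 with median scaling. With array weights Itga7 was 0.23, Itgb2 0.16, Pxn 0.050 and Tgfb1i1 -0.060. With single arrays left out, signs turned in Ilk (-0.13 to 0.011), Itga3 (-0.26 to 0.087), Itga6 (-0.11 to 0.37), Itga7 (-0.85 to 0.37), Itgb2 (-0.72 to 0.21), Pxn (-0.19 to 0.22), Tgfb1i1 (-0.38 to 0.61), Trip6 (-0.12 to 0.11) and Vcl (-0.18 to 0.39). The cause of these shifts was not tested. The 10 genes with an unadjusted p under 0.05 kept their sign in each setting that held them.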

Other observations

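Further adhesion genes had the same split of the Nedd9-null group, and were chosen after their values were seen. Lama1, a laminin chain of early basement membranes, read 4.33 in Nedd9-null replicate 1 and -0.67, -7.01 and -6.83 in replicates 2 to 4, against 3.53, 4.88, 4.27 and 5.07 in Nedd9-WT tumours. It differed by -6.98 (SE 2.41, limma adjusted p = 0.142), and by -9.27 (adjusted p = 0.00662) without replicate 1. Fn1, which encodes fibronectin, the ligand of Itga5, read 1.65 in Nedd9-null replicate 1 and 6.43, 6.19 and 6.62 in replicates 2 to 4, against 4.40, 1.21, 4.74 and 3.65 in Nedd9-WT tumours. It differed by 1.73 (SE 1.26, limma adjusted p = 0.446), and by 2.92 (adjusted p = 0.0474) without replicate 1. Lims2, a second PINCH gene, read -1.31 in Nedd9-null replicate 1 and 1.67, 2.02 and 0.97 in replicates 2 to 4, against -1.25, -1.67, 0.79 and -1.51 in Nedd9-WT tumours. It differed by 1.75 (SE 0.83, limma adjusted p = 0.248), and by 2.46 (adjusted p = 0.0354) without replicate 1. Fermt3 and Parvg, the kindlin and parvin of blood cells, overlapped between the genotypes and differed by -0.21 and -0.26 (limma adjusted p = 0.856 and 0.746).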
